A study of Oryza sativa with 4 samples.

Results

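The genes described here encode the proteins with which rice cells read calcium signals: calmodulins (CAM), calmodulin-like proteins (CML), calcineurin B-like proteins (CBL), the CBL-interacting protein kinases (CIPK) and the calcium-dependent protein kinases (CPK, in older names CDPK). A gene was taken as a member when a symbol or synonym in the rice annotation carried one of these family names and the array held a probe set for that gene alone. The probe set with the highest mean log2 intensity stood for genes with several. The names were met by 92 genes, of which 77 were measured, out of 17905 genes with a probe set of their own. These were 3 of 3 CAM, 23 of 26 CML, 7 of 9 CBL, 24 of 30 CIPK and 20 of 24 CPK genes. The 15 genes not measured here were CML2, CML21, CML22, CBL1, CBL7, CIPK3, CIPK9, CIPK13, CIPK15, CIPK27, CIPK33, CPK11, CPK14, CPK25 and CPK28.

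RNA of young panicles taken before stage 5 was hybridised to 4 Affymetrix rice arrays. The groups were the wild type ZH11 (WT) and ago2-1, plants with OsAGO2 in antisense orientation, both grown in the field without a treatment. Each genotype had 1 array from 2013 and 1 from 2014, so n = 2 arrays per genotype, and neither the promoter of the construct nor the number of plants behind an array is given in the sources used here. AGO2 itself, an argonaute of the small RNA pathways, had no lower value in the antisense plants. In 2013 WT read 9.54 and ago2-1 9.62 (log2 intensity), and in 2014 the pair read 10.53 and 10.98 (mean difference 0.26, limma adjusted p = 1 without and 0.64 with a year block). Every direction below is therefore that of the arrays labelled ago2-1, not of a shown loss of AGO2.

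Many plant signals, among them touch, cold, salt, wounding and pollen tube guidance, raise the calcium level in the cytosol. Calmodulin and the CML proteins bind this calcium through EF-hand motifs and then attach to other proteins, as they have no enzyme activity of their own. CBL proteins also have EF-hands, and recruit CIPK kinases to membranes, where these phosphorylate ion transporters. CPK proteins join a kinase and a calmodulin-like domain in a single chain, so that they sense calcium and phosphorylate targets by themselves.

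Marker genes were read beside the tissue label. Of 11 panicle and floret meristem genes measured, 10 lay above the median of every array. FZP, a spikelet meristem gene, did not. Also above it on every array were 64 of the 77 members, the green leaf genes except RBCS1 and the anther and tapetum genes except PTC1. The count therefore cannot tell tissues apart. Of 6 anther and tapetum genes 5 were lower on the array labelled ago2-1 in both years, and the summed intensity of the 6 was 6278, 4561, 5940 and 4256 on the WT and ago2-1 arrays of 2013 and then of 2014. The sum hides unlike sizes. RAFTIN1 differed by −2.14 log2 in 2013 and −1.80 in 2014 and passed the limma fit with a year block (adjusted p = 0.029). CYP703A3 differed by −0.86 and −1.65, and MSP1, the 1 gene not lower, by 0.08 and 0.04. The 6 green leaf genes summed to 5202 and 5987 in 2013 and to 33646 and 30237 in 2014, with 1 of them (RBCS1) near the bottom of every array. These sums are on the deposited scale. After quantile scaling of all arrays the 6 anther and tapetum genes were all lower in 2014 (median change −0.95). The anther and tapetum markers thus differed with both the genotype label and the year, and the green leaf markers with the year. The part of either set in the results was not tested. In such bulk RNA, fewer cells of a type and less RNA per cell cannot be told apart.

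Values below are log2 intensities as deposited unless called scaled. The scale shifted by 0.65 (median over sorted values) from 2013 to 2014, so the order of arrays across the years is read from values after quantile scaling. The number of arrays limits the precision.

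The families were first compared between the genotypes within each year, as differences on the log2 scale (ago2-1 minus WT) of 1 array against 1, which allows no test. The calmodulin-like genes stood lower on the array labelled ago2-1 in 2013 and the other families hardly did. The median CML difference was −0.61 in 2013 and −0.14 in 2014, beside 0.03 and 0.00 over all genes. In 2013, 17 of 23 CML genes were lower, which is 73.9%, against 45.5% of all genes. The medians of the other families in 2013 and 2014 were −0.05 and −0.03 for CAM, −0.02 and 0.08 for CBL, 0.01 and −0.05 for CIPK, and −0.03 and 0.04 for CPK. After quantile scaling of all arrays the CAM median of 2013 was 0. The spread of all genes was itself wider in 2013, with an SD of 0.50 against 0.29 in 2014.

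**Figure D1:**
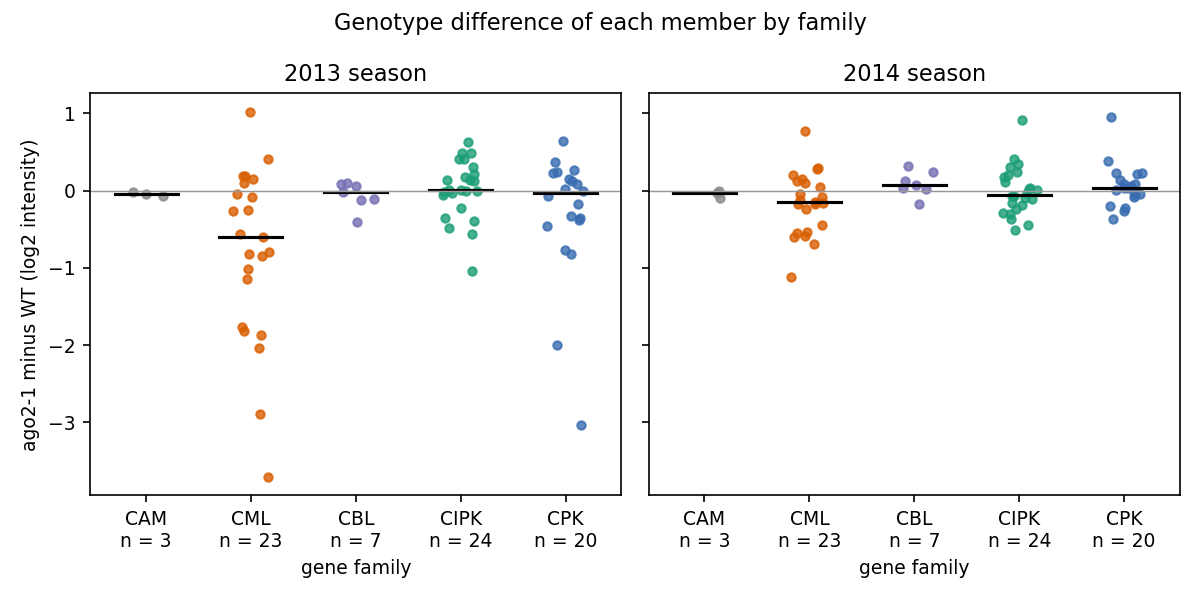
Difference of log2 intensity between the array labelled ago2-1 and the WT array (y axis, log2) for every measured gene of the 5 families in 2013 and 2014; each point is a gene and each bar the family median. The CML points of 2013 reach down to −3.71 with a median of −0.61, whereas the family medians of 2014 lie between −0.14 and 0.08.

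Large differences of 2013 were concentrated in the CML family by count. At least 2-fold lower on the array labelled ago2-1 in 2013 were 11 of the 77 members, 8 of them CML, 2 CPK and 1 CIPK. This is 14.3% of the members, against 3.18% of all genes. The share was 34.8% of CML genes and 5.56% of the 54 other members. At least 2-fold higher was 1 member, CML29 (background 1.1%). In 2014 a single member was at least 2-fold lower, CML17 (background 0.441%), and 0 were at least 2-fold higher (background 0.48%). Of the 8 CML genes that were 2-fold lower in 2013, 6 were also below WT in 2014, and 0 by 2-fold. Of all genes 49.8% were below WT in 2014.

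Over both years together no member passed the test between the genotypes. The limma fit without a block called 0 of 77 members against 0.0507% of all probe sets, with the adjusted p of every member at 1, and 2 members (CML27 and CML31) had an unadjusted p under 0.05. With year as a block it called 0 members against 0.107% of probe sets, and the smallest adjusted p was 0.44, for CML24. The fit without a block left the shift of 0.65 between the years in its residual spread. For CAM3, which differed by −0.01 in each year, the standard error was 0.61 without and 0.12 with the block. High p-values of the fit without a block therefore do not show that the genotypes are alike. At an unadjusted p under 0.05 the block fit held 18 members, or 23.4%, against 11.9% of all genes. Of these, 12 were lower (background 6.96%) and 6 higher (background 4.97%), and by family they were 10 CML, 5 CIPK and 3 CPK genes. The lower ones were CML5, CML9, CML10, CML20, CML24, CML27, CML30, CML31 and CML32 with CIPK18, CIPK25 and CPK20, and the higher ones CML29, CIPK1, CIPK14, CIPK24, CPK7 and CPK22. Among the lower ones outside the naming rule, and so named after their values were seen, CML5 differed by −0.61 in 2013 and −0.18 in 2014, CML20 by −0.56 and −0.24, CPK20 by −0.77 and −0.22, and CIPK18 by −0.22 and −0.45. A second, dimmer probe set of CML5 differed by −1.41 in 2013 and by −0.16 in 2014. At least 1.5-fold lower in both years were 2 members, CML24 and CML27 (background 1.03%), and 0 were 1.5-fold higher in both (background 0.575%).

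CML31 (LOC4325408), a calmodulin-like protein, had the widest gap of 2013 among the members. Its log2 intensity was 10.52 on WT and 6.81 on ago2-1 in 2013, and 5.72 and 5.19 in 2014. After scaling too the WT array of 2013 stood alone, at 10.81 against 7.12 on the next array, and the WT value of 2014 lay below both values of 2013. The differences were −3.71 and −0.53. Their mean was −2.12, and the 95% interval of the fit with a year block was −3.87 to −0.37 (adjusted p = 0.53).

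CML27 (LOC4332731) had 11.34 and 8.45 in 2013, and 8.96 and 8.28 in 2014. On the scaled values (11.64, 8.76, 8.65 and 7.95) the WT array of 2013 was again the high one. The differences of −2.89 and −0.69 gave a block interval from −3.03 to −0.55 (adjusted p = 0.48). A second, dimmer probe set of CML27 differed by −2.50 in 2013 and by −0.01 in 2014. Without the WT array of 2014 the fit called both CML27 (−2.98, adjusted p = 0.047) and CML31 (−4.52, adjusted p = 9.9e-06), but then WT is represented by its array of 2013 alone and the difference also holds the change between the years. Without the WT array of 2013 the difference was −0.60 for CML27 (adjusted p = 1.0) and turned to 0.28 for CML31.

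CML10 (LOC4325762) and CML24 (LOC4344304) were lower on the array labelled ago2-1 in both seasons. CML10 had 12.36 and 10.48 in 2013, and 12.15 and 11.60 in 2014, and after scaling both WT arrays stood above both ago2-1 arrays. The differences were −1.87 and −0.55 (block interval −1.99 to −0.43, adjusted p = 0.46). A dim second probe set of CML10 differed by −0.73 in 2013 and by 0.08 in 2014. CML24 had 4.99 and 3.23 in 2013, and 4.79 and 4.18 in 2014, differences of −1.76 and −0.60 (block interval −1.88 to −0.48). Its scaled WT values also lay above both ago2-1 values, but it was near or under the median of the arrays, where sizes are not settled without a background measure. CML9, next to CAM2 in the genome, differed by −0.26 and −0.44.

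CML32, CML15, CML18 and CML4 make up the rest of the 8 with the largest differences of 2013. CML32 had 5.52 and 3.49 in 2013 and 4.05 and 3.89 in 2014, a dim gene with differences of −2.03 and −0.17. CML15, named after its values were seen, had 10.55 and 8.73 in 2013 and 8.86 and 8.98 in 2014, differences of −1.82 and 0.12. After scaling, the WT array of 2013 lay 1.81 above the next array in CML15 and 3 further arrays read 3.51 to 3.85 in CML32 against 5.84. CML18 differed by −1.15 and −0.05 and CML4 by −1.01 and 0.05, and these 2 were also named after their values were seen.

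Of the 23 calmodulin-like genes 13 were lower on the array labelled ago2-1 in both years, 4 were higher in both and 6 changed sides. The first 2 counts are 56.5% and 17.4%, against 30.0% and 34.2% of all genes. The 4 higher ones were CML8, CML13, CML28 and CML29, and the first 3 of these differed by 0.09 to 0.20 in either year. CML29 had 6.67 and 7.69 in 2013 and 7.20 and 7.49 in 2014 (1.02 and 0.29, block interval 0.15 to 1.16, adjusted p = 0.50). CML16 had scaled values of 13.06 and 12.23 in 2013, and 10.93 and 11.70 in 2014. Its WT values were thus the highest and the lowest of the 4 arrays, with differences of −0.82 and 0.78 before scaling. CML14 likewise differed by −0.84 in 2013 and 0.28 in 2014. CML17 showed its difference in 2014 alone, with 5.95 and 5.90 in 2013 and 7.37 and 6.26 in 2014 (−0.05 and −1.11).

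**Figure D2:**
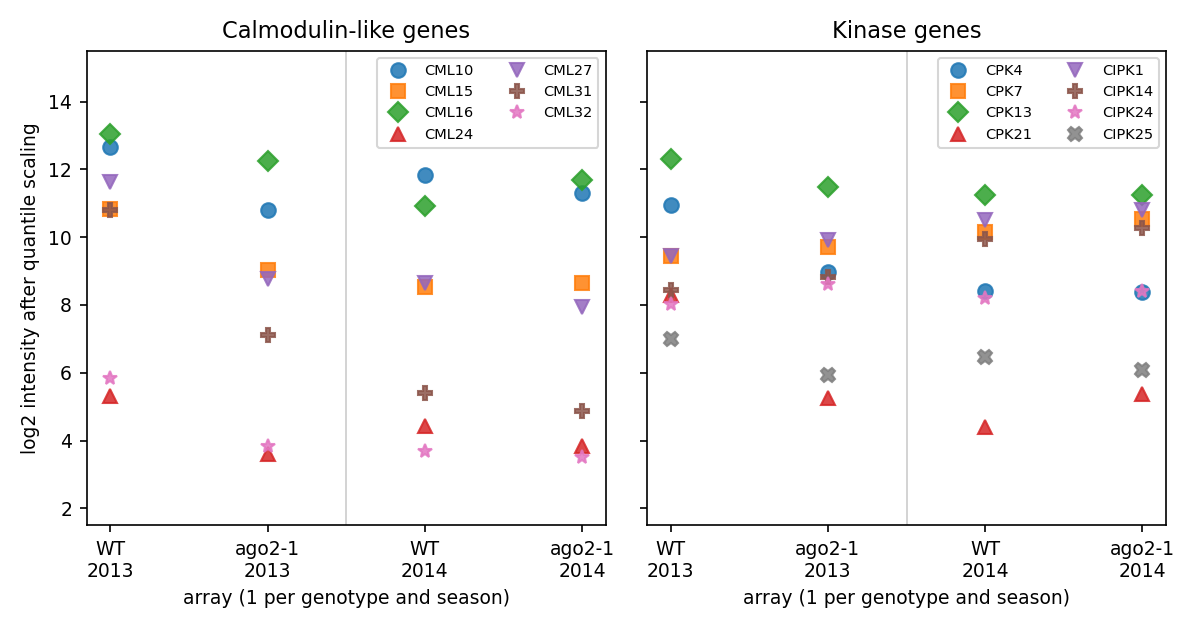
Quantile-scaled log2 intensity (y axis) of 15 named members on the WT and ago2-1 arrays of 2013 and 2014; each point is 1 array, and levels are to be read within a gene, not between genes. In CML15, CML27, CML31, CML32, CPK4 and CPK21 the WT array of 2013 stands 1.81 to 3.69 log2 above the highest of the other 3 arrays.

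The calmodulins, the most conserved calcium sensors, barely differed. CAM1 (LOC4324384) had 12.33 and 12.28 in 2013 and 13.30 and 13.20 in 2014, differences of −0.05 and −0.10. Its annotation entry pools the names CAM1-1, CAM1-2 and CAM1-3, so which of the genes so named the probe set reads is not settled here. The CAM genes are therefore counted by annotation entry. CAM2 differed by −0.08 and −0.03, and CAM3, which the naming rule did not pick, by −0.01 in each year. All 3 calmodulins lay at percentile 98.99 or above on every array. The block intervals, from −0.38 to 0.23 for CAM1, still allow differences within those bounds.

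The CBL proteins, partners of the CIPK kinases, also lay close together. CBL2, for which the family's widest gap of 2013 was measured, had 9.95 and 9.55 in 2013 and 10.49 and 10.31 in 2014 (−0.40 and −0.17, block interval −0.62 to 0.04). CBL4, whose Arabidopsis counterpart SOS3 acts in salt tolerance, was near the median of the arrays at 4.64 and 4.62 in 2013 and 5.55 and 5.87 in 2014 (−0.02 and 0.32). The other 5 CBL genes differed by −0.12 to 0.24 in either year.

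Among the CIPK kinases differences were small in both directions, with 8 genes lower in both years, 8 higher in both and 8 on different sides. Lower in both and higher in both were thus 33.3% each, near the 30.0% and 34.2% of all genes. CIPK25 (LOC4341236) was lower, with 6.68 and 5.63 in 2013 and 6.75 and 6.38 in 2014. Both its scaled WT values lay above both ago2-1 values, with differences of −1.05 and −0.37 (block interval −1.19 to −0.23, adjusted p = 0.47). CIPK24, the rice counterpart of the Arabidopsis salt tolerance kinase SOS2, was higher, with 7.69 and 8.32 in 2013 and 8.52 and 8.73 in 2014 (0.63 and 0.21). CIPK1 had 9.13 and 9.62 in 2013 and 10.80 and 11.11 in 2014 (0.49 and 0.31, block interval 0.08 to 0.72), and CIPK14 differed by 0.40 and 0.35. These 3 kinases were higher on the array labelled ago2-1 within each year, and none passed the test (adjusted p = 0.52 to 0.55 with the block). CIPK16 departed in 2014 alone, with 8.16 on WT and 9.07 on ago2-1, against 8.34 and 8.31 in 2013.

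Of the calcium-dependent protein kinases, 2 shared the high WT array of 2013 with the CML genes. CPK4 (LOC4328155) had 10.65 and 8.66 in 2013, and 8.74 and 8.70 in 2014. On the scaled values (10.94, 8.96, 8.42 and 8.37) the WT array of 2013 lay 1.98 above the next, and the 2014 difference was −0.04 before scaling. CPK21 (LOC4346187) had 7.97 and 4.93 in 2013, and 4.73 and 5.68 in 2014. Its difference was −3.03 in 2013 and 0.95 in 2014, with the last 3 values near or under the array median (block interval −3.23 to 1.15). CPK13, named after its values were seen, differed by −0.82 and 0.04, and its second probe set by −0.94 and 0.13.

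Other CPK genes differed less. CPK7 was higher on the array labelled ago2-1 in both years, with 9.14 and 9.40 in 2013 and 10.45 and 10.84 in 2014 (0.27 and 0.39, block interval 0.01 to 0.64). CPK22 (0.64 and 0.23) was also higher in both, but lay under the median of every array. CPK9 differed by 0.24 and −0.37. Also under the median of every array were CPK2, CPK6, CPK29, CBL5 and CIPK30, which makes 6 such members in all, while 64 lay above it on every array. Over those 64 the median difference was −0.04 in 2013 and −0.03 in 2014.

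**Figure D3:**
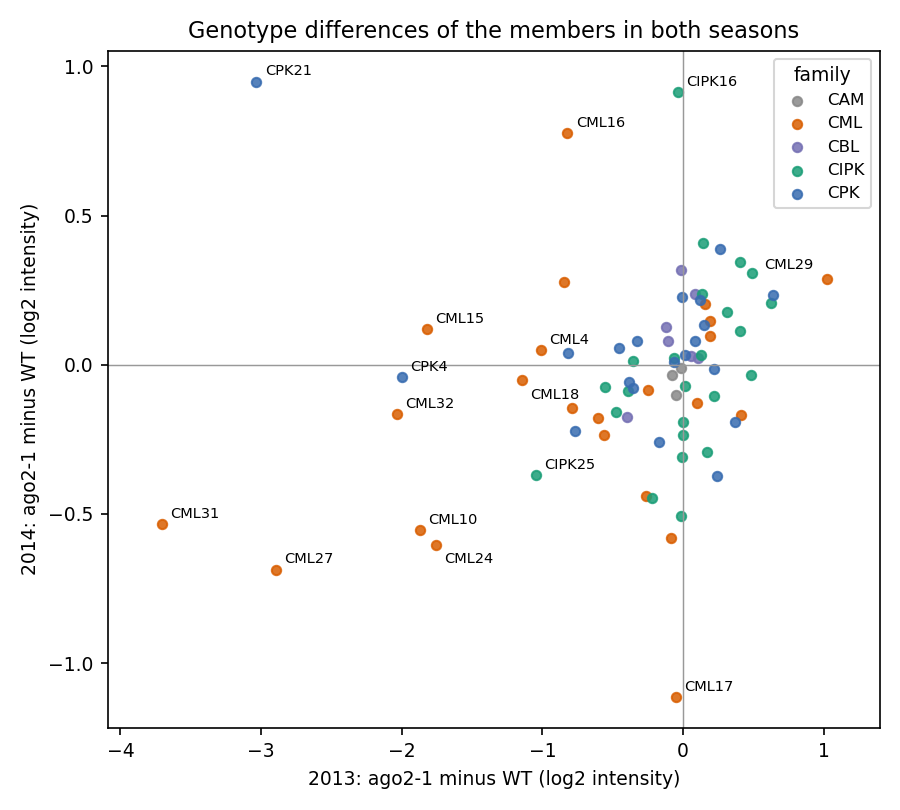
Difference between the array labelled ago2-1 and the WT array in 2014 (y axis, log2) against that of 2013 (x axis, log2) for the 77 members, coloured by family. Of the members 30 (39.0%) lie below 0 in both years, 21 (27.3%) above 0 in both and 26 on different sides. Over all genes 30.0% lie below 0 in both years and 34.2% above 0 in both. The points far to the left are mostly CML genes, with CPK21 (−3.03, 0.95) at the upper left.

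The pattern with WT of 2013 on top was counted across the families after quantile scaling of all 4 arrays, which sets the years on a common scale. That array held the highest value for 16 of 23 CML genes (69.6%), 0 of 3 CAM, 3 of 7 CBL, 8 of 24 CIPK and 7 of 20 CPK genes, against 27.1% of all genes. It stood at least 2-fold above each of the other 3 arrays for 7 members, or 9.09%, against 2.27% of all genes. These were CML4, CML15, CML27, CML31, CML32, CPK4 and CPK21, with gaps between 1.03 (CML4) and 3.69 (CML31). All of these counts rest on the 1 WT array of 2013, which no second array of that genotype and season checks. Where a member had further probe sets, 19 in all, their 2013 difference had the same sign as that of the chosen one in 17, and their 2014 difference in 12.

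The years were compared with a limma fit on the quantile-scaled values with genotype as a term. Year, season and array batch cannot be told apart here. The test called 19 members (24.7%) against 23.3% of all probe sets and 22% of genes. Of these, 8 were higher in 2014 (background 12.2% of probe sets) and 11 lower (background 11.1%). By family they were 9 of 23 CML, 6 of 24 CIPK, 3 of 20 CPK, 1 of 7 CBL and 0 of 3 CAM genes. The share over all members thus lay near that of all genes. Without the WT or the ago2-1 array of 2014, and then without a genotype term, 0 members and 0 probe sets of the whole array passed, while 12670 and 12507 probe sets had an unadjusted p under 0.05. Without the WT array of 2013 the count was 9.

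CIPK14 (LOC4351307) rose most among the members between 2013 and 2014. Its scaled values went from 8.43 to 9.93 in WT and from 8.81 to 10.27 in ago2-1, a change of 1.48 ± 0.03 (SD over the genotypes, n = 2, adjusted p = 0.0037). CIPK1 rose by 0.98 ± 0.13 (adjusted p = 0.0099), CPK7 by 0.78 ± 0.08 (adjusted p = 0.015) and CBL6 by 0.68 ± 0.04 (adjusted p = 0.019). In these 4 genes both arrays of 2014 stood above both of 2013. CML28 rose by 1.00 ± 0.07, CIPK20 by 0.70 ± 0.08 and CPK2 by 0.78 ± 0.17, and all 3 were near or under the array median. CML3 rose by 0.82 ± 0.15, but its probe set shares a name stem with those of its genomic neighbour CIPK32, so its assignment is uncertain.

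CPK24 (CPK24) fell by 1.08 ± 0.03 from 2013 to 2014, with the same change in WT (−1.10) and in ago2-1 (−1.07) (adjusted p = 0.0072). CML9 fell by 0.83 ± 0.09 (adjusted p = 0.013), CIPK10 by 0.93 ± 0.33 (adjusted p = 0.017) and CIPK29 by 0.82 ± 0.37 (adjusted p = 0.025). CML14 fell by 1.25 ± 0.81 and CML30 by 0.79 ± 0.44. CML31 fell by 3.83 ± 2.23 (−5.41 in WT, −2.25 in ago2-1, adjusted p = 0.019). CML27 fell by 1.90 ± 1.54 (−2.99 in WT, −0.81 in ago2-1, adjusted p = 0.043). Without a genotype term the calls of CML14, CIPK29, CML31, CML30 and CML27 were lost (adjusted p = 0.053 to 0.21), and those of CML14, CML31 and CML27 also with a robust prior variance (0.069 to 0.26). Without the WT array of 2013, and with no genotype term, the change was −1.99 for CML31, −0.82 for CML14, −0.53 for CIPK29, −0.46 for CML27 and −0.41 for CML30, and CML31 alone of these 5 passed (adjusted p = 0.030). Without the ago2-1 array of 2013 the CML27 change was −3.34. Of the 16 members named for the years, CIPK14, CML28, CML3 and CPK24 passed without either array of 2013, taken in turn.

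As a family, the CML genes had a median year change of −0.50 beside −0.01 over all genes, with −0.70 in WT and −0.34 in ago2-1. The other family medians lay between −0.02 (CIPK) and 0.05 (CBL). The WT array of 2013 enters this comparison and the genotype comparison of 2013 alike, so the lower CML values in the 2 are not separate observations.

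**Figure D4:**
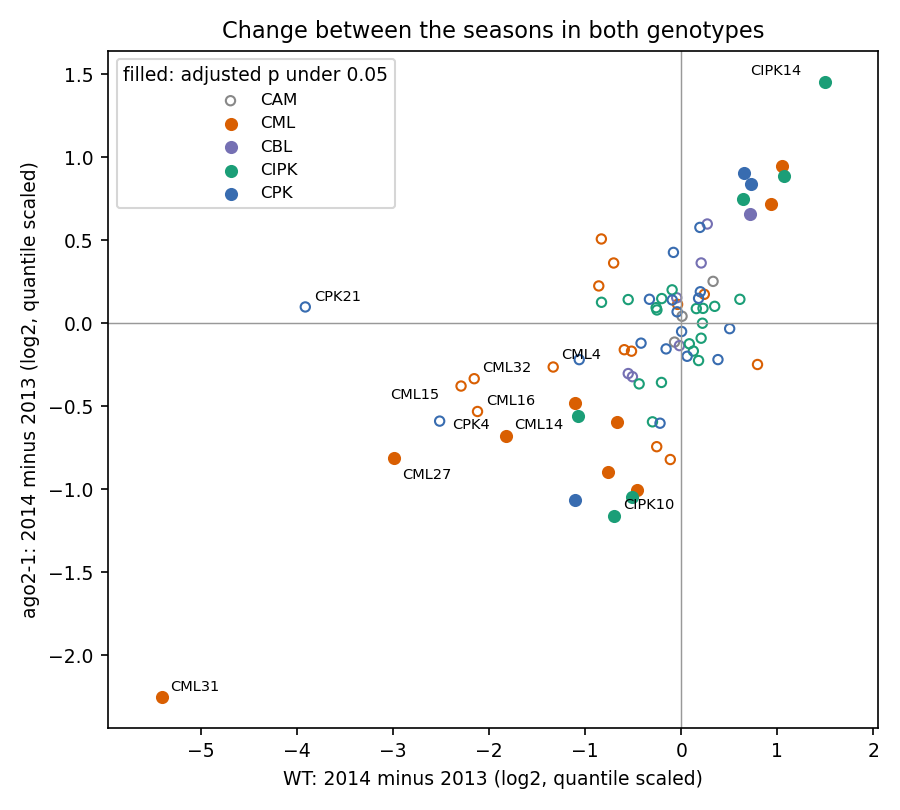
Change from 2013 to 2014 in ago2-1 (y axis, quantile-scaled log2) against that in WT (x axis) for the 77 members, with filled points for the 19 of adjusted p under 0.05. CIPK14 lies near the diagonal with a mean change of 1.48, whereas CML31 (−5.41 in WT, −2.25 in ago2-1), CML27 (−2.99, −0.81) and CPK21 (−3.91, 0.10, not called) lie far from it on the WT axis.

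Other genes of calcium signalling were examined from a list drawn up by name: 3 channels, 9 pumps and exchangers, 2 other calcium-binding regulators and 12 targets and related signalling genes, 26 measured in all. Between the genotypes 0 of the 26 passed in either limma fit (1 without and 2 with the block had an unadjusted p under 0.05), and the median difference was −0.06 in 2013 and 0.00 in 2014. This median pools unlike groups. Lower in 2013 were 8 of 9 pumps and exchangers (median −0.15), 2 of 3 channels and 2 of 2 regulators, against 45.5% of all genes. Of the 12 targets and related genes, mostly SAPK kinases, 4 were lower (median 0.04). ACA7, named like the calcium-pumping ATPases that clear calcium from the cytosol, had 10.03 and 5.98 in 2013 and 5.79 and 5.72 in 2014, differences of −4.06 and −0.07. It thus showed the same high WT array of 2013 as CML31 and CPK4. ACA5 differed by 0.95 and 0.02, and AKT1, a root potassium channel that CBL and CIPK proteins activate, by −0.88 and −0.15. CCAMK, the calcium- and calmodulin-dependent kinase of root symbiosis, differed by −0.12 and −0.48.

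Between the years 6 of the 26 passed (23.1%, near the 22% of all genes), 2 higher and 4 lower in 2014. TPC1, a vacuolar calcium-dependent channel by its Arabidopsis counterpart, rose by 0.89 and the calreticulin CRT1 by 0.49. SAPK9, SAPK10 and SAPK6, SnRK2 kinases of stress and abscisic acid signalling that do not themselves need calcium, fell by 4.01, 1.27 and 0.60. The calcium exchanger CAX1B, which lay under the median of every array, fell by 0.81. The SAPK9 probe set has a suffix (_s_at) that marks possible cross-hybridisation. SAPK9 had 10.46 and 11.06 in 2013 and 7.10 and 7.62 in 2014 on the deposited scale, and was higher on the array labelled ago2-1 in both years (0.60 and 0.52, adjusted p = 0.39 with the block).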

How the data were processed

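Per the labels, total RNA of young panicles was hybridised to 4 biotin-labelled arrays. The extraction text of the labels names a human brain tissue, so extraction is taken as not given. The values are probe set intensities as the authors deposited them, on a linear scale. Per the submitters' processing notes RMA was used, of no stated version. Log2 was taken here with no pseudocount. Sorted values of 2014 lay a median of 0.65 log2 above those of 2013, while the arrays of a year differed by at most 0.12, so the values show no common normalization of the years. The number of arrays limits the precision, and a p-value here reflects only how these few arrays spread, which may be technical.

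Genotypes were compared with limma 3.58.1 (lmFit, eBayes; R 4.3.3), two-sided, on the 4 arrays with no block. P-values were adjusted by Benjamini-Hochberg over 57194 probe sets, at 0.05. A fit with a year block was run beside it. The shift between the years stays in the residual spread of the fit without a block. The titles give only a year for each array, taken here as a shared season that pairs the samples. Same-year deviations correlated with r = 0.77 (0.76 after quantile scaling). Years were compared after quantile scaling with a genotype term. The code was also run on simulated data with noise of a set size, which does not show how the fits perform on these arrays. The interaction of genotype and year has 0 residual degrees of freedom and was not tested.

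Names came from the platform annotation and the RefSeq table of ASM3414082v1, whose coordinates were used only to find members that are neighbours in the genome. Of the chosen probe sets 8 carry an _x_at or _s_at suffix, marking possible cross-hybridisation. They are those of CML13, CBL9, CIPK2, CIPK11, CIPK16, CPK5, CPK12 and CPK18. Of the other calcium genes named, the probe sets of SAPK9 (_s_at) and AKT1 (_x_at) carry such a suffix too. Named members were the 6 lower and the 6 higher in both years by the smaller of the 2 differences, the 4 most opposed, the 5 farthest apart in each year, each family's farthest in each year, the 8 that rose and the 8 that fell most between years, and of other calcium genes those called and the 3 farthest each way. Members and lists were chosen with earlier results of these data known. Alternatives were other scalings, a filter on dim probe sets, a trend in or robust prior variance, the mean of a gene's probe sets, suffixed probe sets left out, other thresholds and each array left out.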

Additional observations from a re-analysis of the deposited data

Results flagged for a closer look

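For 8 of the named members the genotype difference had opposite signs in the 2 years, with 1 array against 1 in each. The difference of 2014 minus that of 2013 was 3.98 log2 for CPK21, 1.60 for CML16, 1.12 for CML14, 0.95 for CIPK16, 0.33 for CBL4 and 0.073 for CPK24, and −0.61 for CPK9 and −0.23 for CML3. These differences between the years were not tested, since the fit that would test them leaves no residual degrees of freedom. Of the 77 members 26 had opposed signs in the 2 years in the deposited values. Over all genes it was 6415 of 17905 (opposed or with a difference of 0), a similar share, so the count is not particular to the members.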

How the results depend on the processing

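With year as a replicate block, 61 in place of 29 probe sets passed between the genotypes, and 67 with the block after quantile scaling. The count was 1 after quantile, median or cyclic loess scaling alone, 19 among probe sets above the median, 51 with a trend in the prior variance, and 29 to 136 with each array left out. No member was called under any of these settings except that 2 were without the WT array of 2014, and 2 each met an unadjusted p under 0.05 or a 1.5-fold limit in both years. With arrays left out, calls numbered 0 to 2. The block changed no member's call. The median genotype difference over members (−0.06) ran from −0.39 to 0.21 when an array was left out, which mixes it with the year. For 24 named members, 236 of 236 values under the other settings kept their sign, and 22 of 96 with an array left out turned it. The block, the prior variance settings and the filters leave the difference itself unchanged. The count of 236 was therefore largely fixed in advance and says little on stability. Between years the 19 member calls became 45 on values as deposited, 12 among probe sets above the median, 4 at a threshold of 0.01, 6 with a 2-fold limit and 0 to 19 with each array left out. Over all probe sets the 13338 calls became 46058 as deposited, 4971 above the median and 0 to 8295 with an array left out. They split into 6995 higher and 6343 lower after quantile scaling, 9333 and 5923 after median centring, 6186 and 6665 after cyclic loess, and 44735 and 1323 as deposited. The median year change of the members (−0.08) was 0.53 as deposited and −0.13 to −0.035 with an array left out. All 143 values of 16 named members under other settings kept their sign, which several of those settings could not turn. Of the 143 values 20 lost the call. With an array left out 47 of 64 lost it and all 64 kept their sign. The causes were not tested.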
